A study of Mus musculus with 13 samples.

Results

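The p53 target genes described here are 33 genes known to be switched on by the transcription factor p53, picked by name from the 43629 genes of a table of RNA sequencing values in mouse thymic lymphomas and normal thymus. The rule is a list of names and uses no value of these libraries. The names were, however, chosen with earlier results of these data known. The table holds 13 libraries. Of these, 5 are from thymic lymphomas of Atm-/- mice, which lack the kinase ATM and are of strain 129S6/SvEv. Another 5 are from thymic lymphomas of Rag2c/c p53-/- mice, on a background that mixes C57BL/6 with 129S6/SvEv, which lack p53 and carry a RAG2 protein shortened at its C-terminus. The other 3 are from normal thymus of wild type (WT) C57BL/6 mice and were re-used from another series. Each lymphoma came from a different mouse. Strain goes with the groups, and for WT thymus so does the series in which libraries were made, so genotype, strain and series cannot be told apart.

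The p53 protein binds DNA and raises transcription of genes that stop the cell cycle, trigger cell death, repair DNA or damp stress. The ATM kinase acts upstream: after a DNA break it phosphorylates p53 and its ubiquitin ligase MDM2, which lets p53 accumulate. In the thymus, p53 is known for killing thymocytes with unrepaired breaks, and mice without p53 or without ATM develop thymic lymphoma. The 33 genes fall by role into cell cycle and checkpoint recovery (6 genes), mitochondrial apoptosis and its modulators (10), death receptors and membrane proteins (5), DNA repair and nucleotide supply (4), stress response and metabolism (6), and a last pair made of a ribosomal protein gene and a gene of the p53 family (2).

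Values are the normalized counts of the authors, rounded to whole numbers. Column totals lay between 19788898 and 21591289, which reflects the normalization and not depth. From the steps between low values, the depth was estimated at 6.72 to 39.6 M reads for WT thymus, 9.25 to 23.6 M for Atm-/- lymphomas and 6.37 to 24.8 M for Rag2c/c p53-/- lymphomas, so that 1 read was worth from 0.5 to 3.375 normalized counts. Of the 33 genes, 30 had 10 or more normalized counts in 3 or more libraries and were tested, among 15872 genes in all. Below, a gene changed when its Benjamini-Hochberg adjusted p was under 0.05, its log2 fold change was at least 1 in size and its mean was at least 10 in either group, in limma on log2(value + 1). Folds and log2 differences are on that scale, and ± gives the standard error (SE) unless stated. In bulk tissue, fewer cells of a type and less RNA per cell cannot be told apart.

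The genes altered in these mice were looked at first. Atm had 732, 208, 445, 568 and 534 normalized counts in the Atm-/- lymphomas and 1990, 1559 and 2274 in WT thymus. All 5 were below all 3 thymuses, and the gene fell 4.16-fold (log2 fold change -2.06 ± 0.42, adjusted p = 0.0017 in limma). Atm was also below thymus in the Rag2c/c p53-/- lymphomas (log2 -1.16, adjusted p = 0.0441 in limma). Its values there, 1248, 439, 1315, 552 and 1154, overlapped those of the Atm-/- lymphomas. Trp53, the gene of p53, had 2616, 5461, 2018, 3863 and 3884 in the Rag2c/c p53-/- lymphomas, 4387, 6341 and 4498 in WT thymus, and 6853, 11318, 9340, 10202 and 6955 in the Atm-/- lymphomas. It was 2.60-fold higher in Atm-/- than in Rag2c/c p53-/- lymphomas (log2 1.38 ± 0.25, adjusted p = 0.00328), and its adjusted p in the latter against WT thymus was 0.131. Rag2 was lower than in WT thymus in both lymphoma groups, from 46 to 1025 and from 260 to 790 against 4199 to 5409 (adjusted p = 0.000624 and 0.0036). The values sum reads over the whole gene, so that reads of any exon a mutant allele keeps are counted. They do not by themselves check the Atm, Trp53 and Rag2 genotypes.

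The comparison of both lymphoma groups asks how p53 target genes differ between tumors of Rag2c/c p53-/- mice and tumors of Atm-/- mice. Whether the Atm-/- lymphomas kept working p53 was not tested. Of the 30 genes tested, 5 changed, and all 5 were higher in the Atm-/- lymphomas: Phlda3, Ccng1, Zmat3, Plk2 and Epha2. This is 16.7% of them, where 7.84% of all genes tested changed in either direction, 3.51% higher and 4.33% lower. None of the 30 fell below the Rag2c/c p53-/- level by these thresholds in limma. Without the fold threshold 6 were higher and 2 lower, and at an unadjusted p under 0.05 13 were higher and 7 lower, where 12.4% of all genes tested were higher and 13.8% lower. The median log2 difference over the 30 genes was 0.25, against 0.02 over all genes tested. The difference was positive for 16 of the 30, and for 8223 of all 15872 genes tested. The quartiles were -0.54 and 0.91, against -0.33 and 0.35 over all genes, so the 30 genes spread wider on both sides.

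Phlda3 encodes a small lipid-binding protein that holds back the survival kinase AKT. It lies on chr1:135766119-135769136 in GRCm38, the build of the files. It had 268, 831, 234, 380 and 394 normalized counts in the Atm-/- lymphomas, 126, 51, 76, 144 and 55 in the Rag2c/c p53-/- lymphomas, and 88, 88 and 69 in WT thymus. Every Atm-/- lymphoma was above every other library, while the Rag2c/c p53-/- lymphomas lay on both sides of thymus. The gene was 4.53-fold higher in Atm-/- than in Rag2c/c p53-/- lymphomas (log2 2.18 ± 0.38, adjusted p = 0.00276) and 4.62-fold higher than in WT thymus (log2 2.21 ± 0.44, adjusted p = 0.00139). Between Rag2c/c p53-/- lymphomas and thymus its log2 difference was 0.03, with an interval from -0.92 to 0.97.

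Ccng1 encodes cyclin G1, a cyclin that recruits a phosphatase to MDM2, and lies on chr11:40748552-40755311. It had 2944, 2793, 2598, 2514 and 3423 normalized counts in the Atm-/- lymphomas, 2112, 1104, 1567, 1599 and 907 in the Rag2c/c p53-/- lymphomas, and 2711, 2943 and 2670 in WT thymus. The Atm-/- lymphomas spanned the thymus values, and all 5 Rag2c/c p53-/- lymphomas were below both other groups. The lymphomas differed 2.03-fold (log2 1.02 ± 0.20, adjusted p = 0.00485). Against thymus, the Rag2c/c p53-/- lymphomas were at -0.99 ± 0.23 (adjusted p = 0.00435), just under the fold threshold. The lymphoma difference sat as close to that threshold: without Atm-/- replicate 5, Rag2c/c p53-/- replicate 2 or Rag2c/c p53-/- replicate 5 it was 0.96, 0.94 and 0.87, with adjusted p of 0.0143, 0.0103 and 0.00826.

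Zmat3 encodes an RNA-binding zinc finger protein that acts on splicing and RNA stability, and lies on chr3:32334792-32366014. It had 527, 2110, 582, 1188 and 855 normalized counts in the Atm-/- lymphomas, 400, 372, 449, 356 and 445 in the Rag2c/c p53-/- lymphomas, and 709, 575 and 765 in WT thymus. The Rag2c/c p53-/- lymphomas had the narrowest spread of any tested p53 target gene in that group (SD 0.15 on the log2 scale) and were below every other library. The lymphomas differed 2.28-fold (log2 1.19 ± 0.31, adjusted p = 0.0241). The gene no longer passed without Atm-/- replicate 2 (log2 0.89), without Atm-/- replicate 4 (adjusted p = 0.0598) or with only the lymphomas in the fit (adjusted p = 0.0565).

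The other 2 genes were low and less certain. Plk2, a kinase of the checkpoint and of centriole duplication on chr13:110395044-110400844, had 128, 66, 42, 188 and 69 normalized counts in the Atm-/- lymphomas, 26, 24, 60, 34 and 28 in the Rag2c/c p53-/- lymphomas, and 66, 49 and 50 in WT thymus (log2 1.38 ± 0.41 between lymphomas, adjusted p = 0.0443). Epha2, a receptor tyrosine kinase for ephrins on chr4:141301240-141329384, had 7, 34, 16, 34 and 121, then 8, 7, 6, 4 and 8, and 40, 23 and 34 in thymus (log2 1.96 ± 0.59 between lymphomas, adjusted p = 0.046). The lymphoma groups overlapped in both genes, through the lowest Atm-/- lymphoma. Both lost the call with no filter on low values, with only the lymphomas in the fit, and without Atm-/- replicate 4 or 5 or without Rag2c/c p53-/- replicate 1, 2, 4 or 5, Plk2 also without Atm-/- replicate 1, and Epha2 also without Atm-/- replicate 2 or Rag2c/c p53-/- replicate 3 or with a pseudocount of 5. Epha2 entered the test through thymus and Atm-/- libraries only, since no Rag2c/c p53-/- library reached 10.

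**Figure D1:**
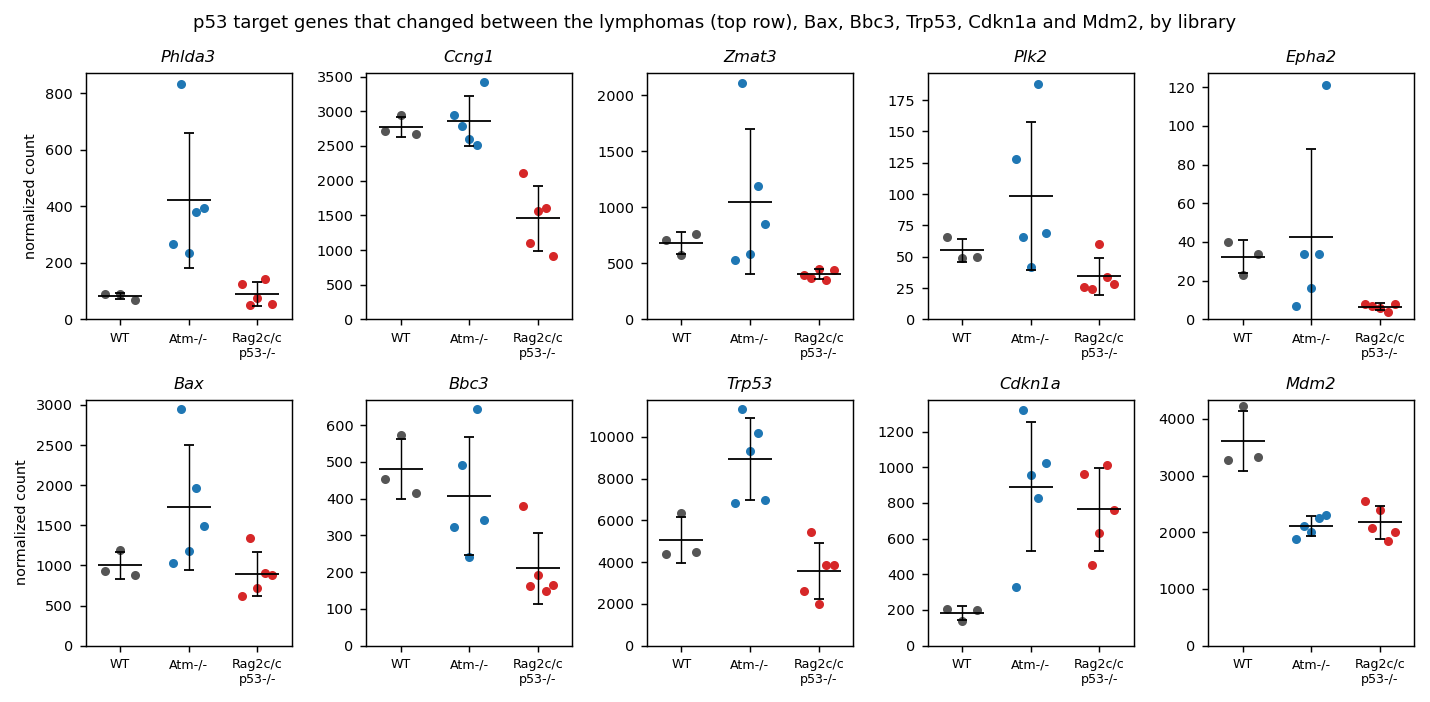
Normalized counts (vertical axes, linear, from 0) of the 5 p53 target genes that changed between the lymphoma groups (top row) and of Bax, Bbc3, Trp53, Cdkn1a and Mdm2 (bottom row). Points are libraries (3 WT, 5 Atm-/-, 5 Rag2c/c p53-/-), horizontal lines are means and bars are ± 1 SD, cut at 0 for Epha2. The Atm-/- lymphomas are above the Rag2c/c p53-/- lymphomas without overlap for Phlda3, Ccng1, Zmat3 and Trp53, while both lymphoma groups overlap for Cdkn1a and Mdm2.

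Of the genes for mitochondrial apoptosis, Bax and Bbc3 fell just outside the threshold. Bax, the pore-forming effector of the BCL2 family, had 1031, 2950, 1177, 1970 and 1487 normalized counts in the Atm-/- lymphomas, 619, 1344, 723, 906 and 879 in the Rag2c/c p53-/- lymphomas, and 925, 1195 and 883 in WT thymus (log2 0.89 ± 0.28 between lymphomas, adjusted p = 0.0516). Bbc3 encodes PUMA, a BH3-only protein that binds the BCL2 family inhibitors of BAX. It had 323, 491, 240, 643 and 341 in the Atm-/- lymphomas, 381, 162, 192, 149 and 166 in the Rag2c/c p53-/- lymphomas, and 454, 572 and 414 in thymus (log2 0.96 ± 0.30 between lymphomas, adjusted p = 0.056). In both genes the groups overlapped by 1 or more libraries. Bax passed without Atm-/- replicate 1, Atm-/- replicate 3 or Rag2c/c p53-/- replicate 2, and Bbc3 without Atm-/- replicate 3 or Rag2c/c p53-/- replicate 1.

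Another 3 genes had an adjusted p under 0.05 but a log2 difference under 1, which makes 8 of the 30 on the adjusted p alone, against 11.6% of all genes. Cd82, a tetraspanin of the cell surface, was higher in Atm-/- lymphomas by 0.74 ± 0.18 (adjusted p = 0.0163). Trp53inp1, a stress-induced cofactor of p53 and of autophagy, was at -0.83 ± 0.21 (adjusted p = 0.0213), and Sesn2, a leucine-sensing inhibitor of mTORC1, at -0.83 ± 0.20 (adjusted p = 0.0165), both lower in Atm-/- than in Rag2c/c p53-/- lymphomas. The lymphoma groups did not overlap for 6 of the 30 genes, against 8.33% of all genes tested. Of these, Phlda3, Ccng1, Zmat3 and Ei24 were higher in Atm-/- lymphomas, and Sesn2 and Gdf15 lower. Ei24, an endoplasmic reticulum protein, had 1406, 1539, 1576, 1640 and 1529 normalized counts in the Atm-/- lymphomas, the narrowest spread of that group, and 254, 1344, 1179, 831 and 1054 in the Rag2c/c p53-/- lymphomas, where the lowest, 254, was replicate 1 (adjusted p = 0.106). No gene of DNA repair and nucleotide supply changed in limma, where 1 of 4 had an unadjusted p under 0.05 and their log2 differences ran from -0.16 for Rrm2b to 0.39 for Polk.

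**Figure D2:**
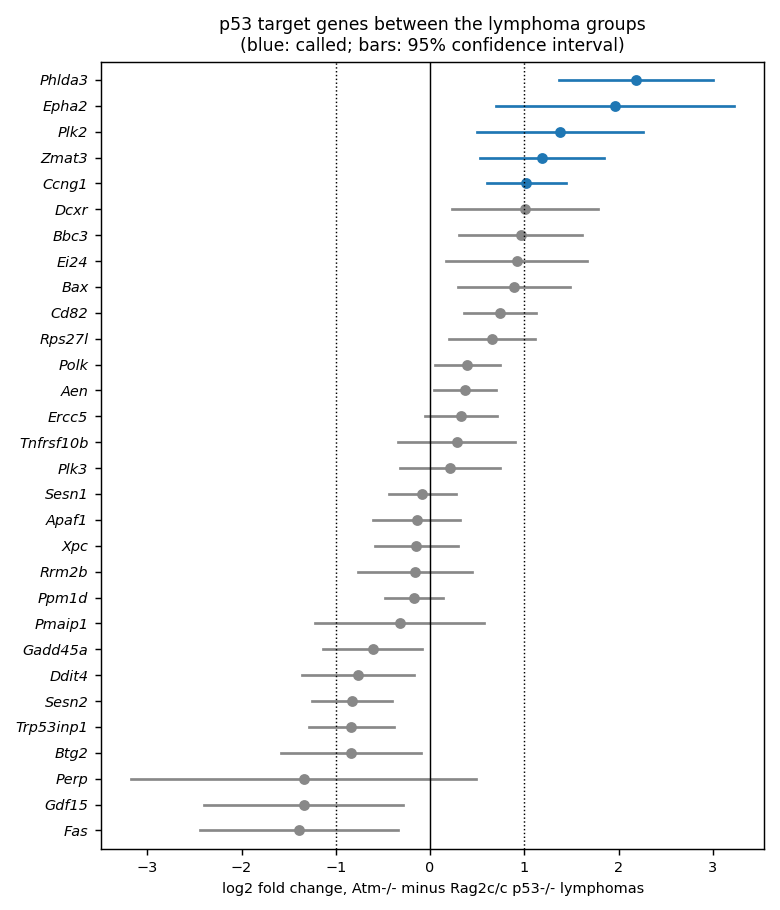
Log2 fold change of the 30 tested p53 target genes (vertical axis, ordered by value), Atm-/- minus Rag2c/c p53-/- lymphomas (horizontal axis), with bars for the 95% confidence interval from limma and dotted lines at the threshold of 1 in either direction. Blue marks the 5 genes that changed, from Ccng1 at 1.02 to Phlda3 at 2.18. Intervals of the low genes Epha2, Perp and Gdf15 are among the widest.

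The promoters of these genes were searched because p53 binds its targets at pairs of a 10-base motif, the p53 half-site, set 0 to 13 bases apart. RefSeq promoters of GRCm38.p6, from 250 bases before to 50 after a start, matched 26 of the 33 genes by symbol, several with more than 1 start. Both strands were searched, and the motif is its own reverse complement in form. A half-site without mismatch was in the promoter of 9 of 26 genes (34.6%) and of 9.55% of all 27025 genes with a promoter. A pair with at most 2 mismatches, none of them at the fixed C and G of the motif, was in 6 of 26 (23.1%) and 4.71% of all genes: Ccng1, Gadd45a, Bax, Sesn1, Rps27l and Trp73. A second list of p53 targets outside the 33, described below, had 13 genes with a promoter. Of these, 2 (15.4%) held a half-site without mismatch and 1 (7.69%), Cdkn1a, held a pair, without mismatch. These are matches of letters only and no site of binding was measured. Among the 5 genes that changed between lymphomas, 4 had a promoter in the table and 1 of those, Ccng1, held a pair. The pairs of Ccng1, of Bax and Rps27l, which had a higher mean in the lymphomas of Atm-/- mice without passing both thresholds, and of Sesn1, which fell there against thymus, are given in the direction of transcription, with the paired half-sites in capitals. The pair of Gadd45a overlaps an annotated exon and is not shown.
Ccng1, 195 bases before its start, between genes, chr11:40755447-40755496, minus strand, 1 mismatch: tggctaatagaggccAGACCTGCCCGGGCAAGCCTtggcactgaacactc
Bax, 216 bases before its start, in an intron of the neighbouring gene Gm45808, chr7:45467075-45467129, minus strand, 2 mismatches: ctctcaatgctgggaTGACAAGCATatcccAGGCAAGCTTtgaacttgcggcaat
Rps27l, 117 bases before a second start, in an intron of the gene, chr9:66946281-66946330, plus strand, 1 mismatch: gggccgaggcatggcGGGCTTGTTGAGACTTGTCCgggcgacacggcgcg
Sesn1, 186 bases before a second start, in an intron of the gene, chr10:41887238-41887290, plus strand, 2 mismatches: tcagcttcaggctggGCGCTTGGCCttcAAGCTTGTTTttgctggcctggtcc

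Rps27l, a ribosomal protein gene with an RPS27-like product, had 1427, 2670, 1669, 2046 and 1583 normalized counts in the Atm-/- lymphomas, 870, 1773, 957, 1447 and 991 in the Rag2c/c p53-/- lymphomas, and 972, 1004 and 947 in WT thymus. It was above thymus in all 5 Atm-/- lymphomas by 0.91 ± 0.25 on the log2 scale (adjusted p = 0.00945), short of the fold threshold, and its difference between lymphomas was 0.66 ± 0.21 (adjusted p = 0.0636).

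Against WT thymus, the Atm-/- lymphomas had 3 higher and 6 lower p53 target genes. Phlda3, Cd82 and Tnfrsf10b rose, and Fas, Pmaip1, Trp53inp1, Btg2, Gadd45a and Sesn1 fell. These 9 of 30 genes stand beside 29.5% of all genes tested (12.6% higher and 17% lower), a share close to their own. Groups did not overlap for 16 of the 30 genes, 7 higher and 9 lower, against 51.3% of all genes. The median log2 difference over the 30 genes was -0.12, against -0.02 over all genes. The genes moved in both directions, and about as often as other genes did in this comparison.

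Fas, the death receptor through which Fas ligand starts apoptosis, had the largest fall of the 30. It had 47, 103, 352, 70 and 345 normalized counts in the Atm-/- lymphomas against 1652, 1673 and 1595 in WT thymus, and 536, 274, 341, 287 and 372 in the Rag2c/c p53-/- lymphomas. All 10 lymphomas were below all thymuses. The fall was 12.2-fold in Atm-/- lymphomas (log2 -3.61 ± 0.56, adjusted p = 0.000267) and 4.66-fold in Rag2c/c p53-/- lymphomas (log2 -2.22 ± 0.56, adjusted p = 0.00802). The Atm-/- lymphomas fell into a lower set of 3 libraries and a pair within the Rag2c/c p53-/- range, and the lymphoma groups differed by -1.39 ± 0.49 (adjusted p = 0.0838). Without Atm-/- replicate 3 or 5, the upper pair, the adjusted p was 0.0271 and 0.0325.

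Pmaip1, which encodes the BH3-only protein NOXA, also fell in both. It had 25, 16, 11, 26 and 17 normalized counts in the Atm-/- lymphomas, 13, 14, 36, 50 and 19 in the Rag2c/c p53-/- lymphomas, and 144, 88 and 130 in WT thymus. No lymphoma reached the lowest thymus. The fall was 6.22-fold (log2 -2.64 ± 0.48, adjusted p = 0.00079) and 4.97-fold (log2 -2.31 ± 0.48, adjusted p = 0.00249). Bbc3, the other BH3-only gene, passed in Rag2c/c p53-/- lymphomas, with a 2.41-fold fall (log2 -1.27 ± 0.35, adjusted p = 0.0126), and its log2 difference in Atm-/- lymphomas was -0.31 ± 0.35. This call of Bbc3 was lost without WT thymus replicate 2.

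Among the genes of the cell cycle and of the p53 cofactors, Trp53inp1 had 4090, 6369, 5419, 3369 and 3800 normalized counts in the Atm-/- lymphomas, 11891, 5998, 9219, 6364 and 7799 in the Rag2c/c p53-/- lymphomas, and 14305, 16915 and 14149 in WT thymus. All lymphomas were below thymus, with a 3.36-fold fall in Atm-/- lymphomas (log2 -1.75 ± 0.24, adjusted p = 0.000113) and -0.91 ± 0.24 in the other group (adjusted p = 0.01). Btg2, an antiproliferative cofactor of mRNA deadenylation, had 1811, 5750, 3138, 1613 and 2144 in the Atm-/- lymphomas, 6943, 6593, 2889, 5225 and 2981 in the Rag2c/c p53-/- lymphomas, and 7261, 9869 and 8063 in thymus. It fell 3.23-fold in Atm-/- lymphomas (log2 -1.69 ± 0.40, adjusted p = 0.00404), and without Atm-/- replicate 2 it was also lower than in the Rag2c/c p53-/- lymphomas, at -1.13 on the log2 scale (adjusted p = 0.025). Gadd45a, a stress protein that inhibits CDK1 and binds PCNA, had 154, 247, 123, 254 and 192 in the Atm-/- lymphomas, 294, 412, 253, 206 and 302 in the Rag2c/c p53-/- lymphomas, and 427, 468 and 400 in thymus, a 2.30-fold fall in Atm-/- lymphomas (log2 -1.20 ± 0.28, adjusted p = 0.00415). Gadd45a overlaps a gene on the opposite strand, and whether reads were counted by strand is not given in the sources used here.

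Cd82 and Tnfrsf10b, a receptor for the death ligand TRAIL, rose in the Atm-/- lymphomas. Cd82 had 5032, 6456, 3355, 6041 and 4123 normalized counts in the Atm-/- lymphomas, 2405, 3560, 2919, 2587 and 3215 in the Rag2c/c p53-/- lymphomas, and 1898, 1972 and 1881 in WT thymus. All lymphomas were above thymus, by 2.54-fold in Atm-/- lymphomas (log2 1.34 ± 0.20, adjusted p = 0.000217) and by 0.60 ± 0.20 in the others (adjusted p = 0.0329). Tnfrsf10b had 209, 292, 351, 246 and 268 in the Atm-/- lymphomas, 350, 169, 150, 163 and 366 in the Rag2c/c p53-/- lymphomas, and 132, 107 and 141 in thymus. All lymphomas were again above thymus, and the rise was 2.13-fold in Atm-/- lymphomas (log2 1.09 ± 0.33, adjusted p = 0.0171). That call was lost without WT thymus replicate 2 or Atm-/- replicate 3.

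The Rag2c/c p53-/- lymphomas had 3 higher and 4 lower p53 target genes than WT thymus. Sesn2 and Ddit4, of the stress response, rose, and so did Gdf15, and Fas, Pmaip1, Bbc3 and Epha2 fell. These 7 of 30 genes stand beside 23.6% of all genes tested (9.77% higher and 13.9% lower). Groups did not overlap for 16 genes, 5 higher and 11 lower, against 43.9% of all genes. Of the 30 genes, 21 had a negative log2 difference, with a median of -0.61 against -0.02 over all genes tested. On the adjusted p alone 14 of the 30 passed, against 37.3% of all genes. Beyond the 7 that changed, these were 6 lower genes, Ccng1, Sesn1, Ercc5, Trp53inp1, Apaf1 and Polk, from -0.99 for Ccng1 to -0.73 for Polk, and Cd82, which was higher.

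Sesn2 had 880, 895, 706, 859 and 928 normalized counts in the Rag2c/c p53-/- lymphomas, 490, 285, 583, 491 and 619 in the Atm-/- lymphomas, and 224, 237 and 272 in WT thymus. The groups did not overlap and stood in that order. It rose 3.48-fold in Rag2c/c p53-/- lymphomas (log2 1.799 ± 0.229, adjusted p = 9.92e-05) and was at 0.97 ± 0.23 in Atm-/- lymphomas (adjusted p = 0.00425). Its relative Sesn1, another mTORC1 inhibitor, went the other way. Sesn1 had 1326, 1151, 1720, 929 and 1343 in the Atm-/- lymphomas, 1645, 1098, 1505, 1149 and 1393 in the Rag2c/c p53-/- lymphomas, and 2586, 2615 and 2616 in thymus, at -1.04 ± 0.19 (adjusted p = 0.000831) and -0.96 ± 0.19 (adjusted p = 0.00191). Without Atm-/- replicate 4 the first of these was -0.93, under the fold threshold.

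Ddit4 encodes REDD1, which also holds back mTORC1. It had 4699, 6545, 3970, 9297 and 4911 normalized counts in the Rag2c/c p53-/- lymphomas, 2215, 2409, 5357, 2880 and 4712 in the Atm-/- lymphomas, and 1889, 2615 and 2233 in WT thymus. The Rag2c/c p53-/- lymphomas were all above thymus, a 2.52-fold rise (log2 1.33 ± 0.32, adjusted p = 0.00565), and the lymphoma groups overlapped. Gdf15, a secreted stress cytokine, had 15, 30, 22, 21 and 15 in the Rag2c/c p53-/- lymphomas, 12, 9, 2, 13 and 6 in the Atm-/- lymphomas, and 8, 3 and 2 in thymus, at 2.14 ± 0.57 on the log2 scale (adjusted p = 0.0102). These are few reads. The gene reached 10 in 0 thymus, 2 Atm-/- and 5 Rag2c/c p53-/- libraries, so it entered the test only through the group where it was high, and its rise supports nothing about the stress genes. Its call was lost without WT thymus replicate 3. Epha2 fell against thymus (log2 -2.13 ± 0.68, adjusted p = 0.0254), and no longer passed without WT thymus replicate 1 or 3 or Rag2c/c p53-/- replicate 4.

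**Figure D3:**
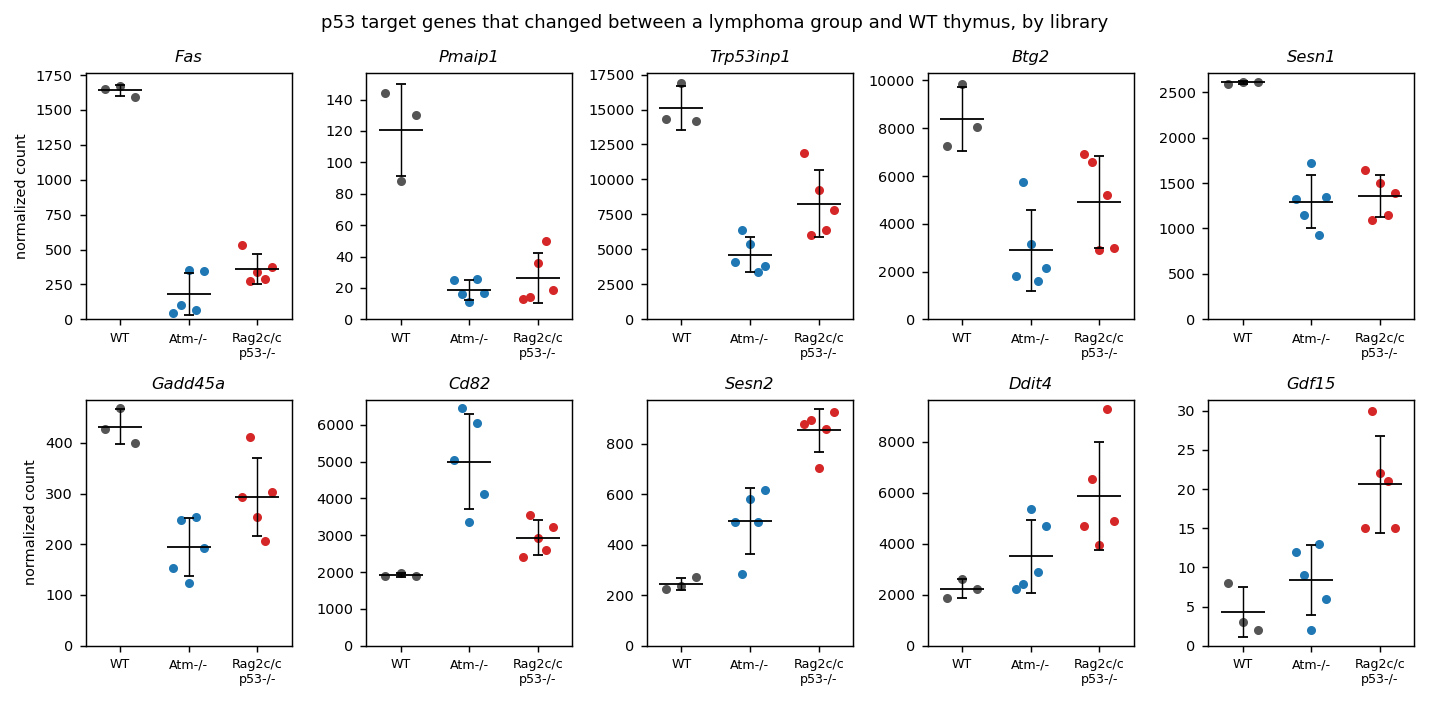
Normalized counts (vertical axes, linear, from 0) of 10 p53 target genes that changed between a lymphoma group and WT thymus. Points are libraries (3 WT, 5 Atm-/-, 5 Rag2c/c p53-/-), horizontal lines are means and bars are ± 1 SD. All 10 lymphomas are below thymus for Fas, Pmaip1, Trp53inp1, Btg2 and Sesn1, and all 10 are above it for Cd82 and Sesn2.

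The genes that did not change in any comparison were Plk3, Ppm1d, Bax, Apaf1, Aen, Perp, Ei24, Ercc5, Polk, Rrm2b, Xpc, Dcxr and Rps27l. Apaf1, the scaffold of the apoptosome, was below WT thymus on the adjusted p alone, at -0.92 ± 0.25 in Atm-/- lymphomas (adjusted p = 0.00857) and -0.78 ± 0.25 in Rag2c/c p53-/- lymphomas (adjusted p = 0.0244). Ppm1d, the WIP1 phosphatase that ends the checkpoint, had overlapping groups, with 985 to 1552, 1185 to 1616 and 1125 to 1420 normalized counts in Atm-/- lymphomas, Rag2c/c p53-/- lymphomas and thymus. Its log2 difference between lymphomas was -0.17, with an interval from -0.47 to 0.14. The repair genes Ercc5 and Xpc, of nucleotide excision repair, Polk, a translesion polymerase, and Rrm2b, a ribonucleotide reductase subunit, had negative differences from thymus in both groups, from -0.93 for Ercc5 in Rag2c/c p53-/- lymphomas to -0.08 for Rrm2b in the same group.

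Perp, a membrane protein of desmosomes and apoptosis, was the most variable of the 30 in both lymphoma groups, with 9, 0, 5, 45 and 16 normalized counts in the Atm-/- lymphomas, 9, 14, 31, 72 and 13 in the Rag2c/c p53-/- lymphomas, and 35, 36 and 28 in WT thymus. The 3 genes under the filter were near 0 in most libraries. Eda2r, a receptor for ectodysplasin A2, had 1, 5, 12, 8 and 1 in the Atm-/- lymphomas, 0 in all 5 Rag2c/c p53-/- lymphomas, and 0, 0 and 1 in thymus. Ak1, a cytosolic adenylate kinase, had 6, 16, 5, 24 and 6, then 5, 3, 7, 4 and 2, and 0, 3 and 2 in thymus. Trp73, the p53 family gene, did not exceed 3 in any library.

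**Figure D4:**
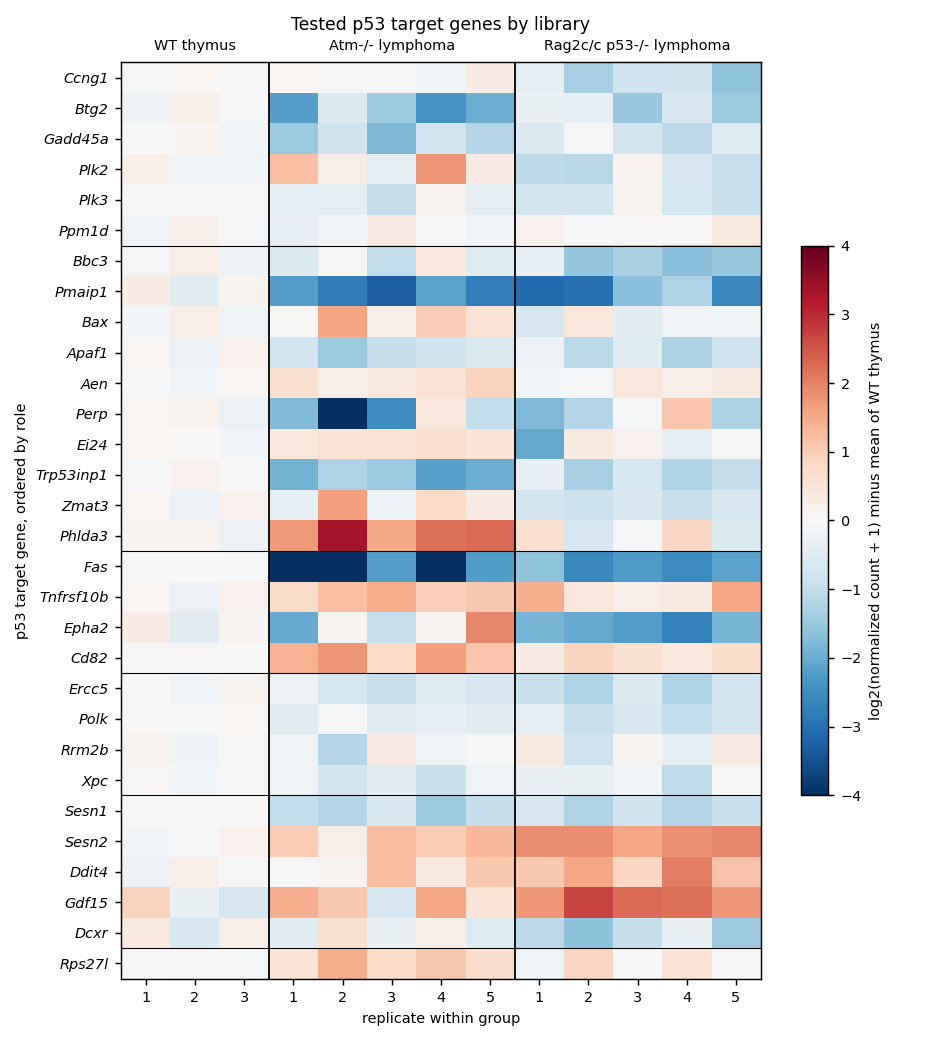
Log2(normalized count + 1) of the 30 tested p53 target genes minus the mean of WT thymus (color, red higher and blue lower), by library (columns, numbered within each group) and gene (rows, with lines between roles). Colors end at 4 in either direction, which cuts Fas in 2 Atm-/- libraries and Perp in 1. Fas, Pmaip1 and Trp53inp1 are blue in all 10 lymphomas, Sesn2 and Cd82 red in all 10, and Phlda3 is red in all 5 Atm-/- lymphomas.

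Within the lymphoma groups the p53 target genes varied about as much as other genes. The median SD on the log2 scale was 0.443 in the Atm-/- group and 0.416 in the Rag2c/c p53-/- group, against 0.436 and 0.493 over all genes tested, and 0.179 against 0.162 in WT thymus. Atm-/- replicate 2 held the highest Atm-/- value for 9 of the 30 genes, Phlda3, Zmat3, Bax, Rps27l and Cd82 among them. It did so for 31.5% of all genes too, and it was the shallowest of its group. The per-library median of the 30 log2 differences from thymus ran from -0.393 to 0.189 in the Atm-/- lymphomas and from -0.78 to -0.283 in the Rag2c/c p53-/- lymphomas, which overlap. The same median over all genes stayed within -0.0528 and 0.0249.

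**Figure D5:**
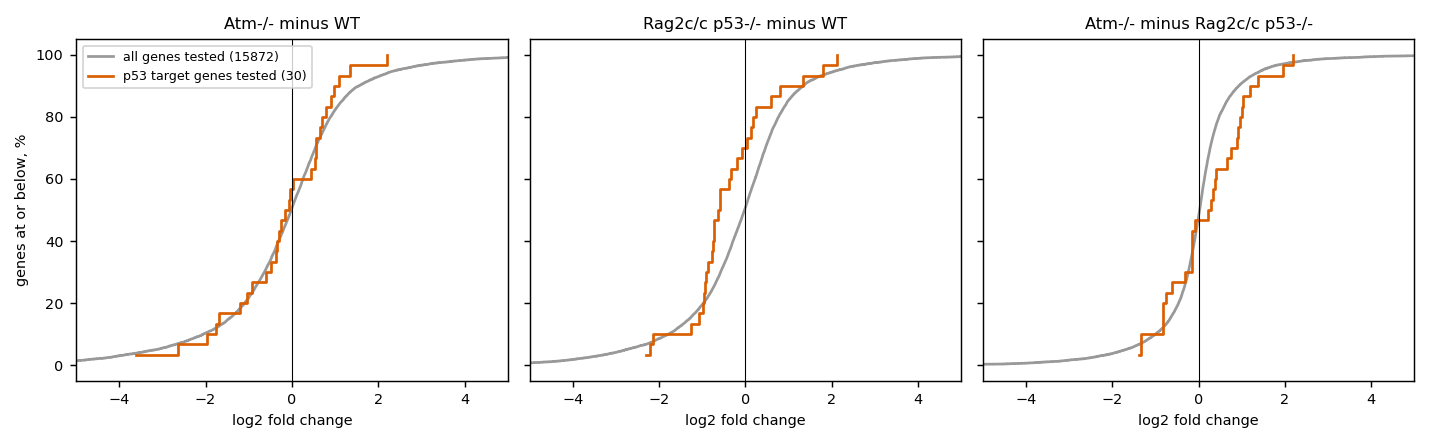
Cumulative share (vertical axis, %) of the 30 tested p53 target genes (orange) and of all 15872 genes tested (gray) at or below each log2 fold change (horizontal axis, shown from -5 to 5), for each comparison. The orange line follows the gray one for Atm-/- against WT, and lies to its left over the negative range for Rag2c/c p53-/- against WT (median -0.61 against -0.02). Between the lymphomas it lies to the right of the gray line over most of the positive range (median 0.25 against 0.02, upper quartile 0.91 against 0.35). At the lower quartile it lies to the left (-0.54 against -0.33).

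A second list of 14 p53 targets outside the 33, of which 13 were tested, had no gene that changed between the lymphomas in limma. At an unadjusted p under 0.05 there were 2, against 26.2% of all genes, and Steap3, a ferrireductase, had an adjusted p of 0.0413 at a log2 difference of 0.71. Cdkn1a, which encodes the CDK inhibitor p21, had 329, 1320, 957, 827 and 1024 normalized counts in the Atm-/- lymphomas, 960, 453, 634, 1015 and 760 in the Rag2c/c p53-/- lymphomas, and 208, 136 and 202 in WT thymus. It rose 4.52-fold (log2 2.18 ± 0.39, adjusted p = 0.000685) and 4.09-fold (log2 2.03 ± 0.39, adjusted p = 0.00148), and the difference between lymphomas was 0.15, with an interval from -0.58 to 0.87. Mdm2 had 1883 to 2310, 1846 to 2556 and 3279 to 4223, at -0.77 and -0.73 against thymus (adjusted p = 0.000965 and 0.00176) and -0.04 between lymphomas, with an interval from -0.31 to 0.23. Of the list, Cdkn1a, Pidd1 (log2 1.12) and Steap3 (2.002) rose in Atm-/- lymphomas and none fell by these thresholds, where 5 were lower at an unadjusted p under 0.05, against 27.7% of all genes. In Rag2c/c p53-/- lymphomas Cdkn1a and Steap3 (1.29) rose and Susd6 (-1.11) fell.

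Of 13 regulators of p53, 4 (30.8%) changed in each lymphoma group against WT thymus. Of all genes tested, 29.5% changed in the Atm-/- and 23.6% in the Rag2c/c p53-/- lymphomas. Mdm4, an inhibitor of p53, fell in both (log2 -1.33 and -1.60, adjusted p = 0.000125 and 5.72e-05), as did Atm (-2.06 and -1.16, adjusted p = 0.0017 and 0.0441). The acetyltransferase gene Crebbp fell in the Atm-/- lymphomas (-1.06, adjusted p = 7.66e-05) and the kinase gene Hipk2 in the Rag2c/c p53-/- lymphomas (-1.59, adjusted p = 0.03). Cdkn2a, which encodes the MDM2 inhibitor ARF and the CDK inhibitor p16, had 213, 489, 3808, 243 and 607 normalized counts in the Atm-/- lymphomas, 4577, 6197, 3759, 5542 and 4036 in the Rag2c/c p53-/- lymphomas, and 4, 3 and 4 in thymus. It rose in both groups (adjusted p = 9.62e-06 and 1.16e-06) and was lower in the Atm-/- than in the Rag2c/c p53-/- lymphomas (log2 -3.06 ± 0.59, adjusted p = 0.00531), with 1 Atm-/- library inside the Rag2c/c p53-/- range. With Trp53, it was 1 of 2 regulators (15.4%) that changed between the lymphomas, where 7.84% of all genes tested did.

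Markers of other cell types moved with the groups, and their part in these results was not tested. The summed level of 8 T cell markers was 68764 to 133009 in Atm-/- lymphomas, 86559 to 165924 in Rag2c/c p53-/- lymphomas and 111235 to 180693 in WT thymus. The sum of 6 fibroblast markers was 4137 to 17444, 2054 to 3905 and 403 to 442, so that no Atm-/- lymphoma overlapped a Rag2c/c p53-/- lymphoma. Of these 6 genes, 5 were higher than in thymus in each lymphoma group and 1, Col1a2, between them. Atm-/- replicate 4 had the highest Col1a1, Col1a2, Col3a1, Dcn and Pdgfra of its group, but not Pdgfrb (1630, against 3470 in replicate 1). It also held the highest Atm-/- value for 8 of the 30 p53 target genes (26.7%), Plk2 and Perp among them. It did so for 19.6% of all genes tested. The sum of 6 myeloid markers was 6787 to 11959, 4009 to 8608 and 4198 to 5358, that of 6 B cell markers 274 to 345, 166 to 557 and 1498 to 1912, and that of 6 thymic epithelial markers 189 to 609, 287 to 1320 and 725 to 1058. Psmb11, which defines cortical thymic epithelium, was at 0 in all 5 Atm-/- and in 4 of 5 Rag2c/c p53-/- lymphomas. It does not stand for all 6 epithelial genes. Against thymus, 4 of them fell by the thresholds in the Rag2c/c p53-/- group, while Epcam (log2 0.10) and Ccl25 (0.06) were not lower. Epcam had 22, 875, 540, 172 and 750 normalized counts there, against 221 to 283 in WT thymus. For the Atm-/- group, all 6 log2 differences from thymus were negative and 3 genes passed. Sums of 6 erythroid markers (934 to 6939, 838 to 4762 and 1109 to 2408), of 6 endothelial markers (3194 to 6189, 1830 to 5255 and 3609 to 3721) and of 6 genes of dividing cells (29639 to 62641, 33652 to 48664 and 34760 to 40302) overlapped between the lymphoma groups. The endothelial sum was nearly all Pecam1, with means of 4991, 3961.6 and 3594. Cdh5 and Kdr, at thymus means of only 28.3 and 27.3, fell in the Rag2c/c p53-/- lymphomas. Their log2 differences from thymus were -2.93 and -2.55 (adjusted p = 0.0183 and 0.0335 in limma). Neither passed in the Atm-/- lymphomas, and Tek, Cldn5 and Emcn were not tested.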

How the data were processed

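Polyadenylated RNA of single-cell suspensions was sequenced from 13 samples with a stranded kit. Per the labels, reads were processed with bcl2fastq 1.8.3, STAR 2.4.0g1 on GRCm38, Picard and DESeq2 1.6.3. The study's methods, written for its own tumors and the WT thymuses and taken to hold for these lymphomas, add Ensembl release 78, removal of duplicates, HTSeq-count 0.6.1 and SARTools 1.1.0. The deposited values are scores, read counts that the authors scaled by library size factors and then rounded. The authors' fold changes, as ratios and as log2 values from DESeq2, their p-values and their group means in the same table were not used, and 0 sample columns were left out.

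Groups came from the genotype labels. The values were fitted with limma 3.58.1 in R 4.3.3 (trend and robust moderation) on log2(value + 1), over genes with at least 10 in at least 3 of 13 libraries, all 3 groups in 1 fit, and Benjamini-Hochberg adjustment was over all 15872 genes tested. The fit was tested on simulated data. Confidence intervals are at 95% and cover the spread between samples. The thresholds are those of the study's methods. The 33 genes and all lists were chosen with earlier results of these data known. Genes that changed are given in every library, and the others by ranges, counts and single values at the edge of a range. All 33 symbols matched the annotation used for the check of names (GENCODE). Of them, 3 overlap a gene with a mean of at least 10, in 1 case (Rrm2b with Gm3362) on the same strand. Bax with Gm45808 and Sesn1 with 9930024M15Rik also overlap on the same strand, but those genes had no value here. Depth was estimated from the steps of low values, and whole reads could not be recovered. Alternatives were other scalings, pseudocounts of 5 and 0.5, no filter, other moderation, only the groups compared, no fold threshold and each replicate left out.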

Additional observations from a re-analysis of the deposited data

Results flagged for a closer look

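A single library stood apart from the other 4 of its group by Dixon's test in 6 of 60 sets of lymphoma values of the tested genes, and in Trp73. The test flags about 5% of sets by chance where values are normally distributed. It was run here on normalized counts without a log, for which that rate need not hold. The values that stood apart were Phlda3 at 831 normalized counts, Epha2 at 121, Polk at 575 and Trp73 at 1 in Atm-/- lymphomas, and Plk2 at 60, Plk3 at 313 and Bbc3 at 381 in Rag2c/c p53-/- lymphomas, each the highest of its group. The next values were 394, 34, 468 and 0, then 34, 172 and 192. The value of Trp73 is about a single read against 0 in the other 4 libraries, and Trp73 was not tested.

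The differences from WT thymus differed between the lymphoma groups for 8 genes on the adjusted p alone, against 11.6% of all genes tested. Since both are set against the same thymus, this is the direct comparison of the lymphomas already given, Atm-/- minus Rag2c/c p53-/- in limma on the log2 scale, and adds no further test. Phlda3 (2.18, adjusted p = 0.00276), Epha2 (1.96, adjusted p = 0.046), Plk2 (1.38, adjusted p = 0.0443), Zmat3 (1.19, adjusted p = 0.0241), Ccng1 (1.02, adjusted p = 0.00485) and Cd82 (0.74, adjusted p = 0.0163) were higher in Atm-/- lymphomas. Trp53inp1 (-0.83, adjusted p = 0.0213) and Sesn2 (-0.83, adjusted p = 0.0165) were lower.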

How the results depend on the processing

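The number of p53 target genes that changed between the lymphomas, 5, was 3 with no filter on low values, 2 with only the 2 groups in the fit, 8 with no threshold on the fold change, and from 2 (without Atm-/- replicate 4 or Rag2c/c p53-/- replicate 5) to 8 (without Atm-/- replicate 3) with 1 replicate left out. It was 3 without Atm-/- replicate 5, Rag2c/c p53-/- replicate 2 or Rag2c/c p53-/- replicate 4. Some of these counts include genes lower in Atm-/- lymphomas. These were Fas without Atm-/- replicate 3 or 5 (log2 -1.74 in each) and Btg2 without Atm-/- replicate 2 (-1.13). Over all genes, 832 and not 1244 changed with only the 2 groups in the fit. Phlda3 passed in this comparison under each alternative run. Against WT thymus, the count was 14 of 30 for each lymphoma group with no threshold on the fold change, where 44.6% (Atm-/-) and 37.3% (Rag2c/c p53-/-) of all genes passed, and with 1 replicate left out it was 8 to 10 for Atm-/- and 6 to 10 for Rag2c/c p53-/- lymphomas. Without the filter Ak1 was higher in Atm-/- lymphomas than in thymus (log2 2.19, adjusted p = 0.0185). Pairs of p53 half-sites with at most 1 mismatch were in promoters of 2 of the 26 p53 target genes (7.69%), and pairs with none in 0%. Over all genes with a promoter these shares were 0.718% and 0.074%.

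Of the values of single genes under the alternatives, 26 between the lymphomas lost a call and 8 gained 1, 3 and 6 for Atm-/- lymphomas against thymus, and 5 and 11 for Rag2c/c p53-/- lymphomas. Some genes that did not change turned direction when a replicate was left out, and the cause was not tested. Their log2 differences then ran from -0.3464 to 0.06582 (Rrm2b) and from -0.1918 to 0.03017 (Sesn1) between the lymphomas. For Atm-/- lymphomas against thymus they ran from -0.03423 to 0.07705 (Ccng1), -0.3875 to 0.1208 (Dcxr), -0.6874 to 0.2953 (Epha2) and -0.1365 to 0.06132 (Ppm1d). For Rag2c/c p53-/- lymphomas against thymus they ran from -0.5588 to 0.04097 (Ei24), -0.1694 to 0.2004 (Phlda3) and -0.1931 to 0.101 (Rrm2b). No paired analysis was possible because each lymphoma came from a different mouse. The labels give the lymphomas no replicate numbers, and those used here follow the order of the samples. Depth limits Gdf15, Epha2, Perp, Eda2r, Ak1 and Trp73 most, since 1 read was worth up to 3.375 normalized counts.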
